A study of Homo sapiens with 12 samples.

Results

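The comparison described here sets 3 libraries of CEBPB knockout cells against 3 libraries of scramble control cells, all 6 treated with 10 µM dexamethasone for 2 h. They are 6 of the 12 libraries of a study of H3K27ac in RPMI 8226, an established human multiple myeloma cell line, and were chosen by genotype and treatment from their titles. The other 6 libraries, 3 of each genotype without dexamethasone (called DMSO here, the vehicle), served to estimate the spread and to ask whether an effect of the knockout differed between treatments. Cells carried either the scramble control or the CEBPB knockout, and the labels do not say if the knockout cells were 1 clone or a pool, or if replicates were grown apart. The p-values therefore measure the spread between these libraries, which may be technical, and differences between the knockout and scramble cells that were there before CEBPB was lost cannot be told apart from its loss.

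H3K27ac is the acetylation of lysine 27 of histone H3, a mark of active promoters and enhancers. CUT&RUN maps it by letting an antibody-tethered nuclease release the marked chromatin fragments, which are sequenced. C/EBPβ, the product of CEBPB, is a basic leucine zipper transcription factor of inflammation, myeloid differentiation and metabolism that recruits histone acetyltransferases. Dexamethasone binds the glucocorticoid receptor, the product of NR3C1, and is used against myeloma because glucocorticoids kill lymphoid and plasma cells, in which the pro-apoptotic BCL2L11 (BIM) is a known mediator.

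The values analysed were the positions of the authors' broad peaks, so the measure is how much of a stretch of DNA lay under a peak in each library. Stretches covered in at least 3 of the 12 libraries gave 53785 regions: 10779 promoter regions within 1 kb of a gene start, 25081 intragenic regions inside a gene, and 17925 distal regions between genes. The 6 libraries held 41164 to 51242 peaks each and covered 48.0 to 59.7 Mb. Sequencing depth is unknown, since no read counts were used, and a value of 0 says that no peak was listed there, not that the mark was absent. Peak sets overlapped more within a group (shared bases were 0.565 to 0.602 of the joint length) than between knockout and scramble (0.480 to 0.515). Promoter regions of 6 of 7 plasma cell markers carried a peak in all 6 libraries, as did those of 6 of 15 mature B cell, 3 of 13 T cell, 3 of 13 myeloid and 5 of 11 stromal or epithelial markers. No region was assigned to the promoters of 8, 8, 7 and 6 markers of the last 4 lists, so these count as 0. Among them were MS4A1 and PAX5 (mature B cells), CD3D and CD3G (T cells), MPO and LYZ (myeloid cells) and PDGFRB and DCN (stromal cells). A peak there in fewer than 3 of the 12 libraries would not show. Members of the same lists with a promoter peak in all 6 libraries included BLK and CR2, LCK and CD8A, CD33 and CD68, and VIM and COL1A1.

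Promoter sequences are shown for the 3 promoter regions of largest rise and for EDIL3, FAT1 and OXTR among the 4 of largest fall (KIF26B is not shown), since each went from no listed peak in one genotype to a peak in every library of the other. They are from RefSeq, GRCh38.p14, 250 bases before to 50 bases after the gene start, written 5′ to 3′ on the strand of the gene. Capitals mark an AP-1 motif (TGANTCA), the only match among the 3 motifs searched on both strands. The other searched motifs were the C/EBP motif TTGCNNAA and the palindromic glucocorticoid response element. In knockout cells, peaks rose over the starts of TMEM156 (chr4:39032360-39032659, minus strand), EVC (chr4:5710951-5711250, plus strand) and CAPNS2 (chr16:55566434-55566733, plus strand).
TMEM156: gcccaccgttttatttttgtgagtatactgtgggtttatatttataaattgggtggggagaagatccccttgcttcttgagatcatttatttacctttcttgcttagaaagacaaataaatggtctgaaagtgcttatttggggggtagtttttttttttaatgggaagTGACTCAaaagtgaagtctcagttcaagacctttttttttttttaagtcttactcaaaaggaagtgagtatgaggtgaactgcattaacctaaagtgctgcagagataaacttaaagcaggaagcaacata
EVC: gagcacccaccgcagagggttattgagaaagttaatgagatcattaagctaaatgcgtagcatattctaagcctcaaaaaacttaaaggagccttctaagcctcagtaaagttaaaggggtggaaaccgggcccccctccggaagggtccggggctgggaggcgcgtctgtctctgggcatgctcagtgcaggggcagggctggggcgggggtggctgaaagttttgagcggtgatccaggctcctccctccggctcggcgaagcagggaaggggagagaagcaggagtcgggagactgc
CAPNS2: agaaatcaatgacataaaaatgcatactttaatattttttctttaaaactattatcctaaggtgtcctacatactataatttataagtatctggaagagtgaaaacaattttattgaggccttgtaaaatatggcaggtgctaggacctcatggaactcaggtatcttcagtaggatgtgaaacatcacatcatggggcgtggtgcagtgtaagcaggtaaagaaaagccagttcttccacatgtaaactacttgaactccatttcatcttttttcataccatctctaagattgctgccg

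Promoter regions with peaks in scramble cells alone were those of EDIL3 (chr5:84384831-84385130, minus strand), FAT1 (chr4:186726647-186726946, minus strand) and OXTR (chr3:8769564-8769863, minus strand).
EDIL3: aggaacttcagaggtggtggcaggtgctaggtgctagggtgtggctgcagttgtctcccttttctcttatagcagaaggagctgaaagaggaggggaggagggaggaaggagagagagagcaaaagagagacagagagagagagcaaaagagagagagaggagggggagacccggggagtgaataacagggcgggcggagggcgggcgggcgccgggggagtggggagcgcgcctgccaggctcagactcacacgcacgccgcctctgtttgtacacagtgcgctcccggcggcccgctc
FAT1: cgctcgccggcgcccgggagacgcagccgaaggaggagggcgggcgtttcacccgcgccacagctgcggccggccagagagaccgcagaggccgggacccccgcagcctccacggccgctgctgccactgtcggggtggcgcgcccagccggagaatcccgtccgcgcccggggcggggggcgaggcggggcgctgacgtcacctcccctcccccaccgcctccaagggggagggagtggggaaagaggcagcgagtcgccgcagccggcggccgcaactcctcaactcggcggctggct
OXTR: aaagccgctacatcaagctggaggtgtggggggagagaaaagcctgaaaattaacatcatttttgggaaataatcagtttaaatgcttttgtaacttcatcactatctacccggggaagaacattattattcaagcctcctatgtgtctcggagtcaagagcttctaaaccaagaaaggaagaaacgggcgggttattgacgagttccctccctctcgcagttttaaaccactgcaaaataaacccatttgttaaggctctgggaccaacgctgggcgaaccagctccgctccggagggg

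The TMEM156 and EVC stretches were covered over all 300 bases in the 3 knockout libraries, and the EDIL3 stretch over all 300 bases in the 3 scramble libraries. The CAPNS2 stretch was covered over 103, 135 and 135 bases in knockout libraries, and the FAT1 stretch over 300, 256 and 300 bases in scramble libraries. The OXTR stretch itself was at 0 in all 6 libraries, because the region assigned to it lay next to the printed bases. The stretch with the AP-1 match, TMEM156, had 35.3% G and C, while FAT1 had 77.3%. Of 15811 promoters of this length, 8.37% held the C/EBP motif, 0.247% the glucocorticoid response element and 5.76% the AP-1 motif. Among the 257 promoters with a region that was higher in knockout cells these shares were 10.5% (27 promoters), 0.389% (1) and 4.67% (12). Among the 209 that were lower they were 9.09% (19), 0% (0) and 4.31% (9), and among the 8799 with a region that did not pass the test 6.38%, 0.159% and 4.01%. The 6546 promoters with no region held the C/EBP motif at 11.0%. G and C made up 64.1%, 66.6%, 65.4% and 55.8% of the bases of these 4 sets, in the same order. These shares are a description, with no test.

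Knockout cells under dexamethasone differed from scramble cells at 6300 of the 53785 regions, 11.7%, of which 3131 were higher (5.82%) and 3169 lower (5.89%). The test was limma on log2(covered bases + 100) with a Benjamini-Hochberg adjusted p under 0.05. Promoters had the lowest share, with 323 higher (3%) and 270 lower (2.5%) of 10779, 5.5% together. Intragenic regions changed at 1500 higher (5.98%) and 1456 lower (5.81%) of 25081, 11.8% together, and distal regions at 1308 higher (7.3%) and 1443 lower (8.05%) of 17925, 15.3% together. Among distal regions the share called was 9.57% closer than 10 kb to a gene, 13.9% from 10 to 100 kb and 22.6% at 100 kb and more. Near genes the higher calls outnumbered the lower (245 against 169), and in the farthest regions the lower outnumbered the higher (725 against 438).

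**Figure D1:**
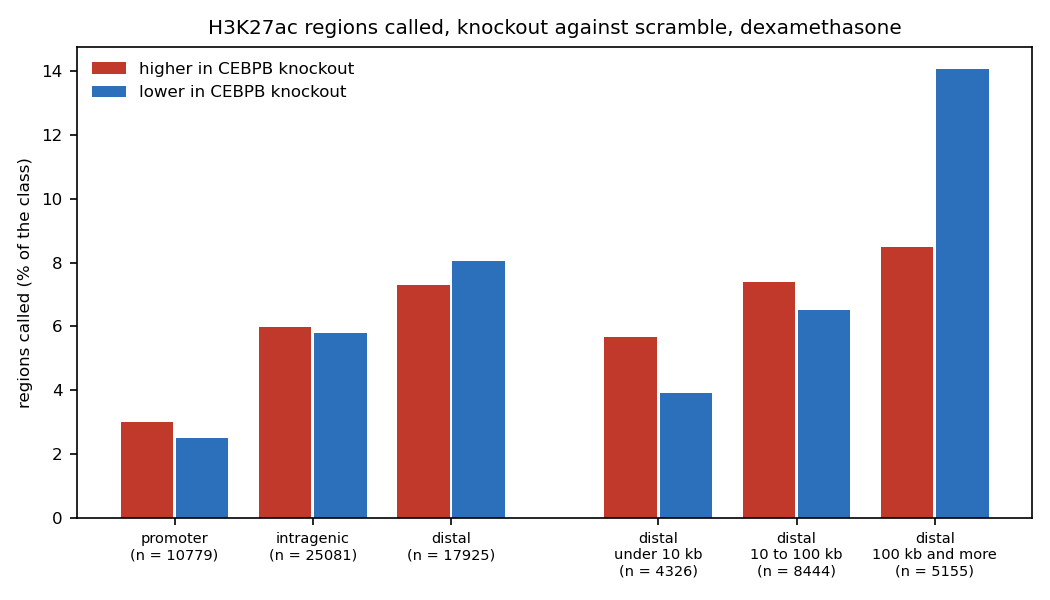
Percent of the regions of each class whose covered length was called higher (red) or lower (blue) in CEBPB knockout than in scramble cells under dexamethasone; the 3 groups on the right divide the distal regions by distance to the nearest gene. Promoter bars are the lowest of the 3 classes, and the tallest bar is the lower calls of distal regions at 100 kb and more, 725 of 5155.

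The shape of the change differed between the classes as well. Called promoter regions rose by a median log2 of 1.04, while called intragenic and distal regions rose by 2.72 and 2.70; the falls had medians of -2.49, -2.94 and -2.81. Regions with a peak in all 3 knockout libraries and in no scramble library made up 0.956% of promoter, 5.12% of intragenic and 5.82% of distal regions. The opposite pattern, a peak in all 3 scramble libraries alone, made up 1.29%, 5.13% and 7.01%; over all regions the 2 shares were 4.52% and 4.99%. The values of all 3 knockout libraries lay above those of all 3 scramble libraries, or below them, more widely than the test called: above at 17.8% and below at 8.16% of promoter regions, 15.2% and 10.3% of intragenic regions and 18% and 13.9% of distal regions (16.7% and 11.1% of all). A promoter already under a peak over its whole length cannot gain covered length: 21.7% of promoter regions were covered over at least 90% in all 6 libraries, against 3.62% of intragenic and 4.47% of distal ones. The part of this in the lower share of promoter calls was not tested. The total covered by each class did not separate the genotypes. It was 15.6 ± 0.233 Mb in knockout and 15.3 ± 0.357 Mb in scramble libraries for promoters (SD, n = 3, exact permutation p = 0.3), 18.2 ± 0.958 and 17.7 ± 1.71 Mb for intragenic regions (p = 0.6), and 13.7 ± 0.642 and 13.4 ± 1.14 Mb for distal regions (p = 0.8); 3 against 3 cannot go below 0.1.

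CEBPB itself kept its promoter peak in the knockout libraries. The region at its start, chr20:50190099-50193402, covered 2.94, 3.25 and 3.27 kb in knockout replicates 1 to 3 and 3.24, 3.15 and 3.15 kb in scramble replicates. The groups overlapped, with a log2 difference of -0.03 ± 0.04 (SE, adjusted p = 0.75). Acetylation of a promoter does not show whether the protein is made, so these values do not test the knockout. A distal region 157 kb beyond CEBPB, chr20:50349366-50351162, had no peak in any knockout library and 1.80, 1.76 and 1.64 kb in scramble libraries (adjusted p = 3.7e-06; 0.45 with the upper 50% of peaks). NR3C1, the glucocorticoid receptor gene, had a promoter region (chr5:143402694-143405858) of 3.16, 3.08 and 3.09 kb in knockout and 3.13, 2.48 and 3.13 kb in scramble libraries, which overlapped (log2 0.08 ± 0.07, adjusted p = 0.61). An NR3C1 distal region that starts at chr5:143526370 was called higher in knockout cells. That call ended when most single libraries were left out, for example scramble replicate 1 (log2 1.25, adjusted p = 0.14). It also ended with the upper 50% of peaks (adjusted p = 0.10).

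Several promoters went from no listed peak in scramble to a full peak in knockout cells. The 6 largest rises and 6 largest falls of each class were taken among calls whose groups did not overlap. That choice favours regions at 0 in 1 genotype. TMEM156 encodes a transmembrane protein, and its promoter region, chr4:39030137-39032925, covered 2.52, 2.79 and 2.64 kb in knockout libraries and 0 in the 3 scramble libraries (adjusted p = 3.8e-05). The region of CAPNS2, a small calpain subunit, covered 2.58, 2.11 and 2.61 kb in knockout and 0 in scramble libraries (adjusted p = 1.0e-06). EVC, a ciliary protein of Hedgehog signalling, stood at 2.59, 2.59 and 2.42 kb against 0 (adjusted p = 0.0074). In all 3 the groups were apart, which the choice required, with no scramble peak to set a fold against. The photoreceptor cadherin CDHR1, the zinc finger protein SOBP and GREB1L, a relative of the oestrogen-induced GREB1, followed with 1.29 to 2.60 kb in knockout libraries and 0 in scramble libraries. Over bins of 500 bp, the bins matched to TMEM156 and EVC had an adjusted p of 0.058 and 0.051.

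A second group of promoters lost their peak in knockout cells. EDIL3, which codes for a matrix protein bound by integrins, had 3.45, 3.41 and 3.46 kb under peaks in scramble libraries at chr5:84382059-84385513 and 0 in all 3 knockout libraries (adjusted p = 1.7e-07). SOX4, an HMG-box transcription factor of lymphoid development, had 3.24, 3.19 and 2.72 kb in scramble libraries at chr6:21593674-21596910 and 0 in knockout libraries (adjusted p = 4.4e-07). The promoter of the giant cadherin FAT1 had 3.72, 2.60 and 3.64 kb in scramble and 0 in knockout libraries (adjusted p = 4.4e-07). The same all-or-none pattern held for the kinesin KIF26B (3.48, 3.31 and 3.10 kb in scramble libraries), the oxytocin receptor OXTR (2.98, 3.09 and 3.11 kb) and the ryanodine receptor RYR2 (2.57, 2.56 and 2.61 kb). RYR2 was the only one of these 6 whose call ended when the upper 50% of peaks by fold enrichment were used (adjusted p = 0.26). NCAM1, the adhesion molecule CD56, lost 2.07, 1.96 and 1.59 kb of scramble coverage at its promoter (0 in knockout libraries, adjusted p = 1.7e-06; 0.99 with the upper 50% of peaks).

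Other promoters changed in breadth, with a peak in both genotypes. BCL2, the mitochondrial inhibitor of apoptosis, had a promoter region (chr18:63317906-63321042) of 3.13, 3.09 and 3.13 kb in knockout and 1.46, 1.39 and 1.32 kb in scramble libraries. The groups were far apart, with a log2 difference of 1.08 ± 0.04 (SE, adjusted p = 3.2e-07). The peaks there were broader in knockout cells but had a lower fold enrichment over background, the authors' own value for each peak, of 3.72, 3.94 and 3.89 against 5.87, 6.11 and 5.97 in scramble cells. ITGB7, the β7 chain of lymphocyte homing integrins, covered 5.54, 5.69 and 5.53 kb in knockout and 3.85, 3.76 and 3.80 kb in scramble libraries (log2 0.52 ± 0.02, adjusted p = 4.4e-07). KCNMB2, a regulatory subunit of calcium-activated potassium channels, covered 2.11, 2.11 and 2.00 kb against 1.25, 1.11 and 1.18 kb (log2 0.73 ± 0.04, adjusted p = 2.4e-06; 0.74 with the upper 50% of peaks). BCL2L11, which codes for BIM, was narrower in knockout cells, at 3.19, 3.19 and 3.28 kb against 3.76, 3.66 and 4.06 kb (log2 -0.26 ± 0.04, adjusted p = 0.0012). That call ended when every library was trimmed to the same covered length (log2 -0.24, adjusted p = 0.95). The single 500 bp bins matched to ITGB7, KCNMB2 and BCL2L11 were covered alike in both genotypes (log2 0).

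Fold enrichment was not used by the calls, but it belongs to the same listed peaks, so it is not an independent measure. Each region was given the value of the strongest peak over it. At the 323 promoters with higher covered length, the median over regions with a peak was 3.79, 3.76 and 3.71 in knockout libraries and 4.71, 5.05 and 5.03 in scramble libraries. All 323 had a knockout peak while 219, 205 and 200 had a scramble peak, so the scramble medians cover a subset. Each median was above that of its whole library (3.33 to 3.75 over the 6). At promoters with lower covered length the medians were 3.75 to 3.82 in knockout and 3.72 to 3.76 in scramble libraries. At called intragenic regions they stood between 3.21 and 3.80, and at called distal regions between 3.40 and 3.85, in both directions and both genotypes. These medians are a description of the authors' values, with no test.

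Inside genes, the regions of largest change, chosen in the same way, were again all-or-none. GREB1L had 4.06, 4.79 and 4.44 kb under peaks in knockout libraries at chr18:21262389-21267173, 20.2 kb from its start, and 0 in scramble libraries (adjusted p = 8.8e-06). SMOC2, a calcium-binding matrix protein, had 3.75, 3.65 and 3.74 kb in knockout libraries at chr6:168605735-168609490 and 0 in scramble libraries (adjusted p = 1.7e-07). MCC, named for its mutation in colorectal cancer, had 3.02, 3.13 and 3.09 kb, 273 kb from its start, and 0 in scramble libraries (adjusted p = 2.5e-07). None of these groups overlapped, which the choice required. CDC14B, a cell cycle phosphatase, EVC and the SRC-family kinase FYN completed the 6 regions of largest rise with 2.78 to 4.06 kb against 0. With libraries trimmed to equal covered length those 3 calls ended (adjusted p = 0.24, 0.25 and 0.10), and the 500 bp bin matched to GREB1L had an adjusted p of 0.058.

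Among the intragenic regions that fell, ANKRD30A had the largest difference, with 5.32, 5.34 and 5.31 kb in scramble libraries at chr10:37141489-37146830 and 0 in knockout libraries (adjusted p = 1.7e-07). GALNT17, which codes for a glycosyltransferase of the mucin type, had 4.07, 4.08 and 4.08 kb in scramble libraries at chr7:71234356-71238431 and 0 in knockout libraries (adjusted p = 1.7e-07). PIEZO2, a mechanically gated ion channel, varied more between scramble libraries, at 2.87, 4.23 and 4.07 kb, and was at 0 in knockout libraries (adjusted p = 3.5e-07). The other 3 were in ACSS3, a mitochondrial acyl-CoA synthetase, the neuronal adhesion molecule DSCAM and RYR2, with 3.29 to 3.59 kb in scramble libraries and 0 in knockout libraries. The gene table used gives only the span of each gene, so exons and introns were not told apart.

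Distal regions, chosen in the same way, showed the same pattern farther from genes. A region 268 kb from CADM1, an adhesion molecule of the immunoglobulin family, covered 3.02, 3.30 and 3.22 kb in knockout libraries at chr11:115772806-115776107 and 0 in scramble libraries (adjusted p = 4.4e-07; 0.24 with libraries trimmed to equal covered length). CCDC74A had 2.73, 2.81 and 2.92 kb in knockout libraries 101 kb away and 0 in scramble libraries (adjusted p = 8.3e-06). The other rises of this size lay near SH3YL1, UNC93A, the interleukin-1 family cytokine IL36A and the secreted kinase PKDCC, with 2.20 to 2.94 kb against 0. Of these 4, SH3YL1, UNC93A and IL36A lost their call with the upper 50% of peaks (adjusted p = 0.15, 0.49 and 0.12), and PKDCC in its 500 bp bin (0.051). A region 11.2 kb from VIM, which codes for the intermediate filament vimentin, covered 1.90, 2.00 and 2.04 kb in knockout and 0 in scramble libraries (adjusted p = 1.2e-06; 0.12 with the upper 50% of peaks).

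Distal falls were led by a region of 4.63, 4.62 and 4.46 kb in scramble libraries and 0 in knockout libraries near the uncharacterised gene LOC124901498 (adjusted p = 1.2e-06; 0.24 with equal covered length). TMTC1, an enzyme of protein O-mannosylation, had 3.90, 3.55 and 3.85 kb in scramble libraries at chr12:30057238-30061457 and 0 in knockout libraries (adjusted p = 1.7e-07). FZD10, a Wnt receptor, had 3.42, 3.52 and 3.25 kb in scramble libraries 18.9 kb away and 0 in knockout libraries (adjusted p = 1.7e-07). Each of these was separated between the genotypes in all 6 libraries, which the choice required. CYLC2, TMEM132B and TOPAZ1 completed the group with 2.26 to 4.69 kb in scramble libraries and 0 in knockout libraries, and the call ended for CYLC2 with equal covered length (adjusted p = 0.25) and for TMEM132B in 500 bp bins (0.46). Graded distal changes also occurred. ID3, an inhibitor of basic helix-loop-helix factors, had 3.53, 3.54 and 3.52 kb in knockout and 1.53, 1.37 and 1.51 kb in scramble libraries 32.1 kb away (log2 1.17 ± 0.06, adjusted p = 1.5e-06). With only the upper 50% of peaks the difference at ID3 turned to -3.99 (adjusted p = 7.4e-05), since its broad knockout peaks, of fold enrichment 3.13 to 3.25, were below the limit that the scramble peaks, at 4.42 to 4.80, passed.

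**Figure D2:**
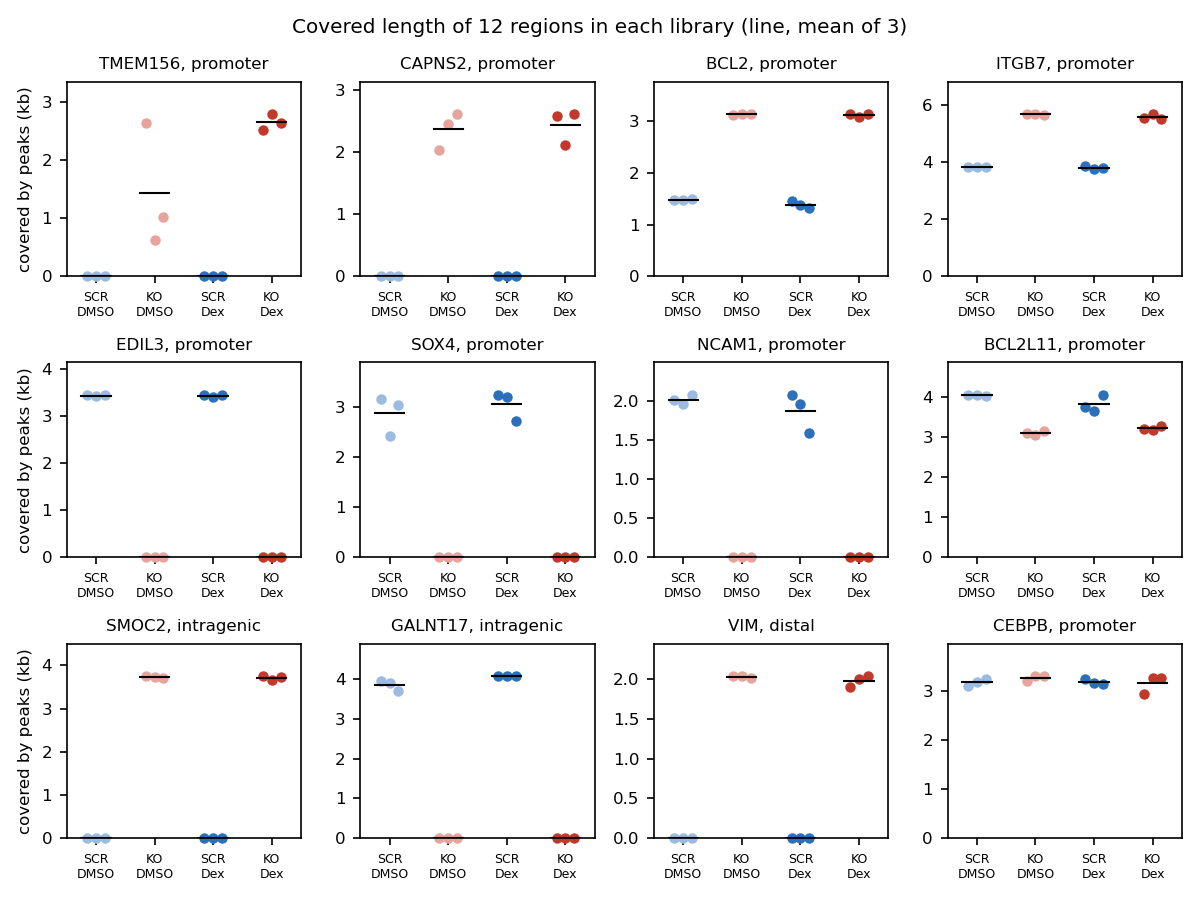
Covered length in kb of 12 promoter, intragenic and distal regions in each of the 12 libraries, by genotype (SCR, scramble; KO, CEBPB knockout) and treatment; each point is a library and the line is the mean of 3. Most panels are at 0 in one genotype, BCL2 and ITGB7 are graded with knockout above scramble, BCL2L11 is graded the other way, and the CEBPB promoter overlaps at 2.94 to 3.30 kb in all groups.

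The 6300 calls lay at 3452 of 15008 genes with any region, where a region outside genes was given to its nearest gene. Calls at 1 gene mostly shared a direction: 248 of the 3452 genes had calls both ways. Of 323 genes with a higher promoter region, 96 also had a higher intragenic or distal region and 15 a lower one. Of 269 genes with a lower promoter region, 105 had a lower region elsewhere and 17 a higher one. At 1582 genes an intragenic or distal region was called while the promoter region was tested and did not pass. Another 1278 genes with such a call had no promoter region among those tested.

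Some genes carried long runs of called regions; the 10 with most calls in each direction are described here, chosen after their values were seen. AUTS2, a neuronal gene linked to transcriptional activation, had 52 of 68 regions lower, 1 promoter, 36 intragenic and 15 distal. Its regions together covered 68.1, 61.2 and 63.7 kb in scramble libraries and 0, 0 and 0.312 kb in knockout libraries. FAT1 had 35 of 49 regions lower, with 63.3, 62.5 and 64.0 kb in scramble and 4.61, 6.20 and 5.71 kb in knockout libraries. RYR2 had 34 of 45 lower and TMTC1 31 of 37. The splicing factor RBFOX1 (33 of 63 lower, 1 higher), the calcium sensor CALN1 (31 of 45), the kinase MAST4 (29 of 50), the Rap GTPase regulator SIPA1L2 (28 of 40), the receptor phosphatase PTPRM (27 of 47) and SPDYE21 (26 of 35, all distal) followed. The SPDYE21 regions were given to it only as their nearest gene. Over SPDYE21 itself and 25 kb on either side the covered length was not called (log2 -0.067, adjusted p = 0.87). In all 10 genes the scramble libraries were above every knockout library, which choosing genes by their number of calls favours.

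Runs of gained regions were shorter. L3MBTL4, a reader of methylated histones, had 24 of 46 regions higher, with 39.4, 41.7 and 40.7 kb in knockout and 10.3, 8.33 and 8.23 kb in scramble libraries. FYN had 14 of 16 higher, its promoter among them, with 15.1, 17.3 and 15.5 kb in knockout and 0, 0.398 and 0 kb in scramble libraries. CYRIA, a regulator of the Rac GTPase and actin, had 9 of 15 higher, its promoter among them, with 14.5, 15.2 and 14.7 kb against 1.68, 3.64 and 1.33 kb. CACNB2, a calcium channel subunit, had 10 of 14 higher, with 14.4, 16.2 and 12.0 kb against 0, 0.302 and 0.328 kb. STARD13 (14 of 24), the sulfatase SULF1 (13 of 15), MCC (12 higher and 1 lower of 22), the focal adhesion scaffold NEDD9 (12 of 15), CNIH3 and GREB1L (9 each) made up the rest. Their libraries too were separated by genotype, which the choice by number of calls again favours.

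**Figure D3:**
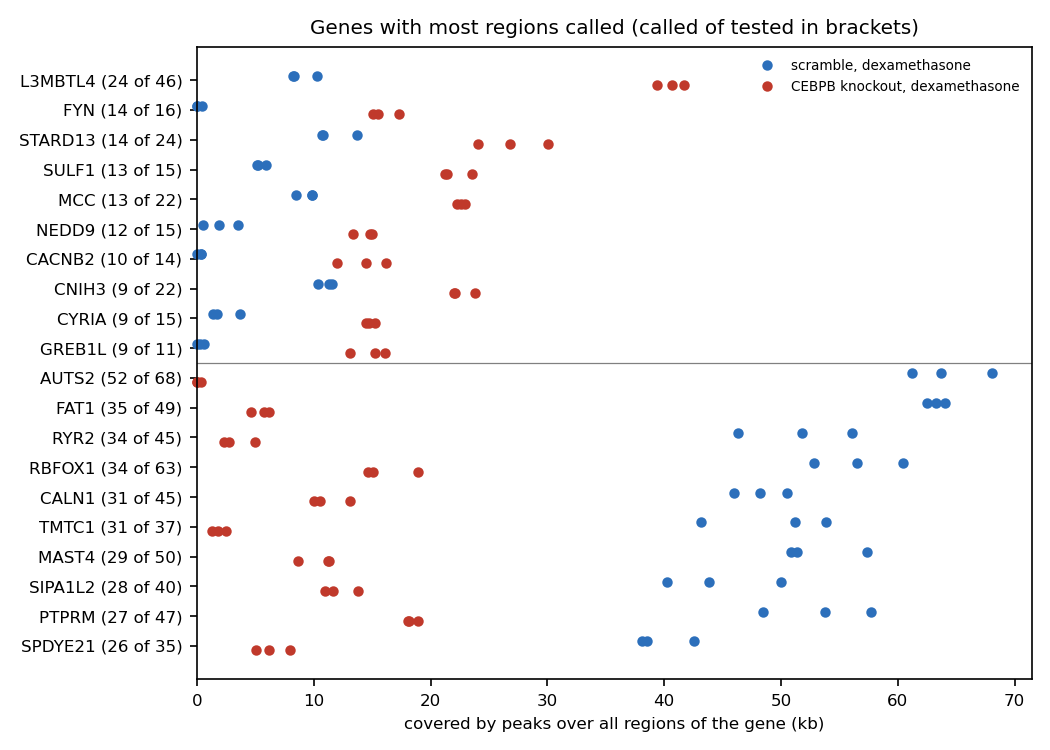
Kilobases under peaks over all regions of a gene in each scramble (blue) and CEBPB knockout (red) library under dexamethasone, for the 10 genes with most higher calls (above the line) and the 10 with most lower calls (below it); brackets give regions called of regions tested. The 2 colours do not mix in any of the 20 genes, which choosing them by number of calls favours. AUTS2 lies at 0 to 0.312 kb in knockout against 61.2 to 68.1 kb in scramble libraries.

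Gene functions were then read from 41 lists, counting the called regions of all members beside the 11.7% of all regions. Protocadherins and cadherins, the calcium-dependent adhesion molecules, had the highest share: 24 regions higher and 92 lower of 351, or 33.0%, with a median log2 of -0.27 beside 0.0016 over all regions. Of the 92, FAT1 gave 35, CDH6 15, CDH4 14, CDH2 10 and CDH11 5, so 5 members carried most of the count. A CDH4 region 165 kb from its start covered 2.63, 2.62 and 2.16 kb in scramble and 0 in knockout libraries (adjusted p = 5.9e-07; 0.11 with the upper 50% of peaks). CDH26 went the other way with 5 of 21 regions higher. Genes with many regions weigh more in such a share. Over gene windows (the gene and 25 kb on either side, where 7.63% of 17152 were called, 4.25% higher and 3.38% lower) it was 3 higher and 4 lower of 60.

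The axon guidance ligands and receptors had 20 higher and 51 lower of 361 (19.7%): the netrin receptor UNC5C had 13 of 16 regions lower and the ephrin receptor EPHA3 6 of 6, while the netrin receptor DCC had 5 of 14 higher and ROBO1 3 of 9. At UNC5C a region 23.9 kb from the start covered 2.19, 1.94 and 2.07 kb in scramble and 0 in knockout libraries (adjusted p = 1.0e-06). Extracellular matrix genes and their proteases had 13 higher and 25 lower of 256 (14.8%), with 9 of 11 regions lower at the procollagen protease ADAMTS2 and 3 of 10 higher at the collagen chain COL4A1. Integrins and other adhesion receptors were mixed, at 10 higher and 8 lower of 144 (12.5%), with CD58 (3 higher) and NCAM1 (3 lower) in opposite directions.

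Of the developmental regulators, SOX and GATA factors stood above the 11.7% of all regions, while Notch, Wnt and TGF-β and BMP pathway genes were near it. Each of these lists had calls in both directions. The SOX and GATA transcription factors had 6 regions higher and 14 lower of 70 (28.6%), 9 of the lower ones at SOX4, SOX9 and SOX13 (3 each), 2 at SOX2 and 1 each at SOX1, SOX5 and GATA4, and 3 of the higher ones at SOX11. A region 224 kb from SOX2 covered 2.04, 1.87 and 1.91 kb in scramble and 0 in knockout libraries (adjusted p = 1.2e-06). Notch pathway genes had 9 higher and 5 lower of 105 (13.3%), Wnt pathway genes 10 and 13 of 199 (11.6%), and TGF-β and BMP pathway genes 19 and 11 of 259 (11.6%). WNT7A had 5 of 11 regions lower, whereas the promoter of the Wnt receptor FZD8 covered 1.22, 2.19 and 1.22 kb in knockout and 0 in scramble libraries (adjusted p = 1.7e-05; 0.058 for its 500 bp bin). BMP2 (4 of 9) and ID2 (4 of 46) were higher. BMP6 had 2 of 6 lower, 1 of them at 1.77, 1.77 and 1.71 kb in scramble and 0 in knockout libraries (adjusted p = 2.2e-06; 0.25 with the upper 50% of peaks). Receptor tyrosine kinases (9 higher, 7 lower of 160, 10.0%) and potassium channels (30 and 19 of 396, 12.4%) stood near the share of all regions, with 7 higher regions at KCNMB2.

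The BCL2 family, which sets the threshold of apoptosis, had 8 regions higher and 1 lower of 84 (10.7%): 5 of 20 at BCL2, 2 of 10 at PMAIP1 (NOXA) and the promoter of BBC3 (PUMA), which both code for pro-apoptotic proteins, against the lower promoter of BCL2L11. That share was near the 11.7% of all regions. A PMAIP1 distal region lost its call with the upper 50% of peaks (adjusted p = 0.22) and in its 500 bp bin (0.064). Over the gene window, BCL2 covered 31.6, 28.1 and 26.5 kb in knockout and 18.8, 13.4 and 15.4 kb in scramble libraries (log2 0.90 ± 0.11, adjusted p = 0.00028). Chemokines and their receptors had 11 higher and 4 lower of 92 (16.3%). The window of CCL3, a macrophage inflammatory chemokine, covered 1.69, 3.49 and 2.75 kb in knockout and 0 in scramble libraries (adjusted p = 7.0e-06), and that of its neighbour CCL4 2.72, 4.45 and 3.73 kb against 0.701, 0.523 and 0.474 kb (log2 1.86 ± 0.15, adjusted p = 8.2e-06; 0.088 with the upper 50% of peaks). Their windows overlap, so they are not separate observations.

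TNF ligands and receptors had 11 regions higher and 4 lower of 103 (14.6%), and 7 windows higher and 1 lower of 32 (25%). TNFSF8, the CD30 ligand, covered 5.20, 6.14 and 6.23 kb in knockout and 2.27, 2.04 and 2.31 kb in scramble libraries (log2 1.16 ± 0.13, adjusted p = 0.00016; 0.052 with the upper 50% of peaks). CD40LG, the ligand of CD40, covered 1.60, 2.73 and 1.55 kb against 0, 0 and 0.265 kb (adjusted p = 0.00027). TNFSF10, the death ligand TRAIL, covered 3.41, 3.18 and 2.44 kb against 0.742, 0.741 and 0.763 kb (log2 1.43 ± 0.23, adjusted p = 0.0025; 0.23 with the upper 50% of peaks), and its receptor TNFRSF10B had a region 3.35 kb away of 2.62, 2.56 and 2.52 kb against 0.557, 0.582 and 0.464 kb (log2 2.02 ± 0.13, adjusted p = 5.4e-06). With the upper 50% of peaks the TNFRSF10B difference was -1.11 (adjusted p = 0.73). The other 4 higher windows are not 4 observations: TNF and LTB held identical values and LTA overlaps them. All 4 lost their call without scramble replicate 3, with an adjusted p of 0.13 for TNF and LTB, 0.10 for LTA and 0.091 for FASLG, and without some other single libraries. Interleukins and their receptors had 9 higher and 2 lower of 139 (7.91%): IL1RN, the interleukin-1 receptor antagonist, had 3 of 4 regions higher, and a region by the receptor IL1R1 covered 0 in knockout and 2.35, 1.86 and 2.41 kb in scramble libraries (adjusted p = 1.1e-06; 0.99 with the upper 50% of peaks).

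Glucocorticoid-induced genes, which dexamethasone is known to raise in many cells, had 12 regions higher and 12 lower of 251 (9.56%), and 2 windows higher and 3 lower of 45. ZBTB16, a strongly glucocorticoid-responsive zinc finger repressor, covered 3.98, 2.67 and 3.36 kb in knockout and 14.1, 9.49 and 12.7 kb in scramble libraries (log2 -1.77 ± 0.36, adjusted p = 0.010; 0.14 with an offset of 100 bp and 0.77 with the upper 50% of peaks). TSC22D3, which codes for the glucocorticoid-induced leucine zipper GILZ, covered 6.97, 8.26 and 7.30 kb against 12.0, 11.6 and 11.1 kb (log2 -0.63 ± 0.12, adjusted p = 0.0066; 0.091 after centring by 10 Mb and 0.071 with the upper 50% of peaks). For both genes every knockout library lay below every scramble library. The other 3 called windows, SMAP2 and STOM (higher) and TLE1 (lower), lost their call without scramble replicate 3 (adjusted p = 0.11, 0.072 and 0.081), among other single libraries. FKBP5, a co-chaperone of the receptor, overlapped, at 8.26, 11.1 and 8.58 kb in knockout and 9.72, 8.47 and 10.2 kb in scramble libraries (log2 -0.07 ± 0.14, adjusted p = 0.87), and so did the clock gene PER1, at 14.9, 15.7 and 16.3 kb against 15.9, 15.8 and 14.4 kb (log2 -0.01 ± 0.10, adjusted p = 0.98). GADD45A, a stress and growth arrest gene, had a distal region of 2.19, 2.20 and 2.18 kb in knockout and 0.750, 0.762 and 0.766 kb in scramble libraries (log2 1.36 ± 0.09, adjusted p = 5.9e-06), and 2 of 14 regions of the chemokine receptor CXCR4 were higher.

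Lists of the plasma cell, housekeeping and metabolic programmes mostly had shares under the 11.7% of all regions, as a description. Plasma cell markers had 1 region higher and 0 lower of 48 (2.08%), and plasma cell transcription factors 10 and 5 of 211 (7.11%), with 4 of 26 higher at MEF2C. The 7 plasma cell marker promoters together covered 18.1 to 19.3 kb in knockout and 15.9 to 16.7 kb in scramble libraries. Proteasome subunits had 2 higher and 0 lower of 58 (3.45%), ribosomal proteins 3 and 4 of 127 (5.51%), cell cycle genes 3 and 3 of 119 (5.04%), histone modifying enzymes 7 and 7 of 251 (5.58%), and NF-κB pathway genes 3 and 4 of 114 (6.14%). Lipid and sterol genes had 10 higher and 0 lower of 187 (5.35%), of which the cholesterol exporter ABCA1 gave 5 of 8. Among them, the promoter of the lipid droplet protein PLIN3 covered 1.35, 1.46 and 1.36 kb in knockout and 0.728, 0.690 and 0.799 kb in scramble libraries (log2 0.78 ± 0.08, adjusted p = 0.00013). The unfolded protein response (7 and 5 of 105, 11.4%), AP-1 and immediate early genes (6 and 4 of 134, 7.46%), solute carriers (50 and 46 of 1012, 9.49%) and ZNF zinc finger genes (42 and 47 of 928, 9.59%) were close to balanced. Promoters, of which 5.5% were called over all genes, made up 67 of the 127 regions of ribosomal protein genes.

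Small lists gave few calls. MHC class I and antigen processing genes had 3 higher and 0 lower of 63 (4.76%), MHC class II genes 0 and 3 of 19 (15.8%) and interferon-stimulated genes 3 and 0 of 61 (4.92%). Of these 9 calls, 1 each at HLA-B, HLA-C, HLA-DRA, CIITA, IFITM1 and ISG20 was lost when single libraries were left out, for example without scramble replicate 2 at HLA-B (adjusted p = 0.12), HLA-C (0.077), HLA-DRA (0.063), CIITA (0.12) and ISG20 (0.051) and without scramble replicate 3 at IFITM1 (0.067). The C/EBP family and its partners had 1 higher and 2 lower of 22 (13.6%). Both falls were at distal regions whose nearest gene was CEBPB, while its promoter region was not called. The second of these falls, at chr20:50338146-50339993, covered 1.27, 0.912 and 1.09 kb in knockout and 1.64, 1.49 and 1.70 kb in scramble libraries (log2 -0.57 ± 0.12, adjusted p = 0.015). That call ended without scramble replicate 3 (adjusted p = 0.057) and with the 6 dexamethasone libraries fitted alone (0.079). It also ended after centring by 10 Mb (log2 -0.26, 0.22) and in its 500 bp bin (log2 -0.22, 0.67). Markers of mature B cells (0 higher and 5 lower of 40), T cells (3 and 5 of 47), myeloid cells (0 and 0 of 16) and stromal or epithelial cells (5 and 3 of 39) were called at regions outside their promoters only. The summed promoter coverage of these 4 marker lists overlapped between the genotypes, for example 12.3 to 14.4 kb in knockout and 12.5 to 15.2 kb in scramble libraries for mature B cells.

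**Figure D4:**
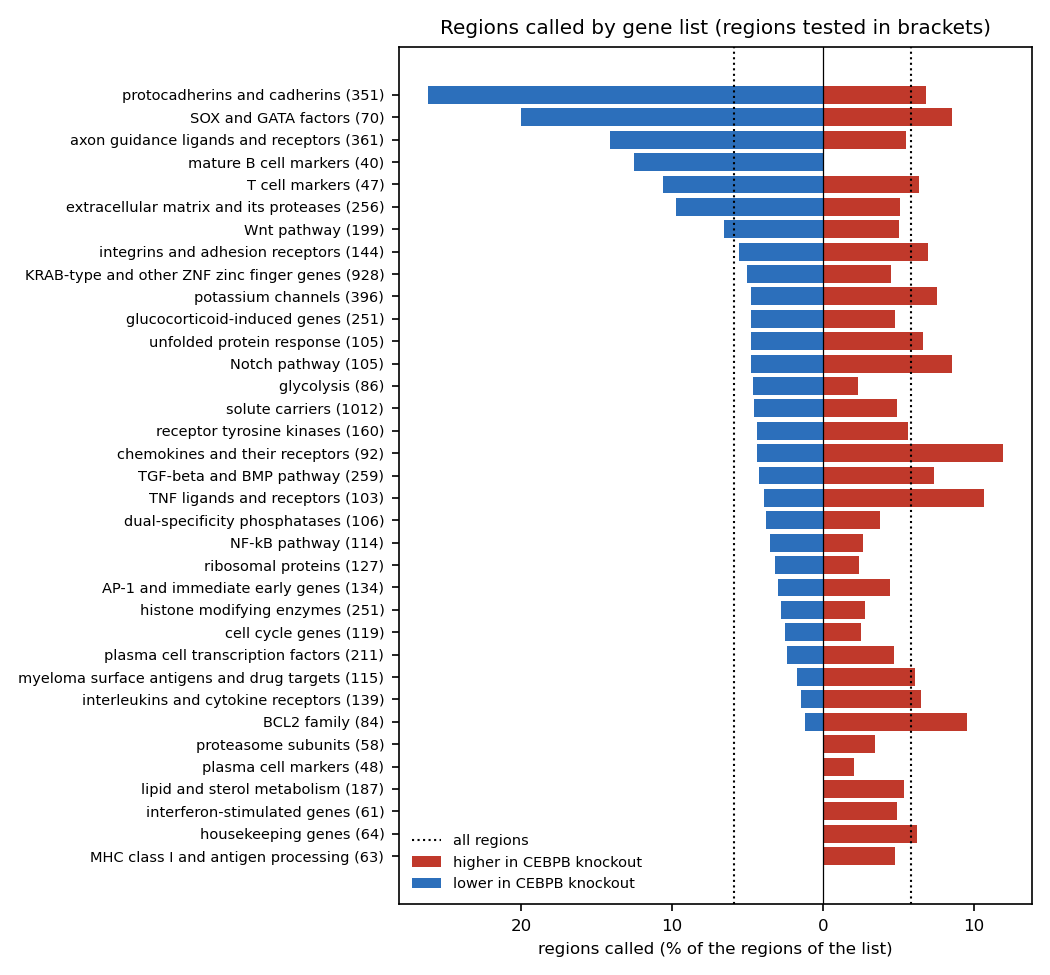
Percent of the regions of each gene list called higher (red, right) or lower (blue, left) in CEBPB knockout under dexamethasone, for the reported lists with at least 40 regions tested (number in brackets); the dotted lines mark 5.82% higher and 5.89% lower over all regions. Cadherins, SOX and GATA factors and axon guidance genes extend left of the line, and chemokines, TNF family and BCL2 family genes extend right of it.

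Calls were not spread evenly along the chromosomes. Of 298 stretches of 10 Mb with at least 30 regions, 12 had at least 20% of their regions lower and 4 at least 20% higher, beside medians of 5.17% and 5.97%. Lower calls were dense on chromosome 7 from 60 to 80 Mb, which holds AUTS2, GALNT17 and CALN1, with 55 of 173 regions in the first 10 Mb and 84 of 322 in the second. They were dense at the end of chromosome 4 around FAT1 (51 of 172, 29.7%) and on chromosome 1 from 230 to 240 Mb around SIPA1L2 and RYR2 (75 of 289, 26.0%). Higher calls were dense on chromosome 13 from 30 to 40 Mb, which holds STARD13 (29 of 102, 28.4%). They were dense on chromosome 6 from 110 to 120 Mb, which holds FYN (29 of 119, 24.4%). Higher calls were also dense on the first 10 Mb of chromosome 18, which holds L3MBTL4 (47 of 216, 21.8%). That stretch of chromosome 18 was mixed, since it also holds PTPRM and had 28 of its 216 regions lower. When every library was centred within 10 Mb stretches, 8815 regions were called, 4551 higher and 4264 lower, and promoter calls went from 593 to 1841, 949 of them higher. Copy number was not measured, and its part in these stretches was not tested.

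The knockout effect under dexamethasone was then set beside the effect in DMSO, a comparison with which it shares no library. Both came from the same fit to all 12 libraries, with the same regions, normalisation and estimate of spread. The 2 sets of calls are therefore not independent. In DMSO 5343 regions were called, 9.93%, with promoters again at the lowest share (4.48%, beside 9.95% of intragenic and 13.2% of distal regions). Both treatments called 3635 regions in the same direction, 57.7% of the dexamethasone calls and 68.0% of the DMSO calls, and 12 regions in opposite directions. Of the 6300 dexamethasone calls, 94.0% had the same sign in DMSO, beside 68.4% of all regions. BCL2 showed this at its promoter, with 3.12, 3.14 and 3.13 kb in knockout and 1.47, 1.47 and 1.50 kb in scramble cells in DMSO. EDIL3 (0 against 3.45, 3.43 and 3.45 kb), SMOC2 (3.75, 3.72 and 3.71 kb against 0) and the VIM region (2.04, 2.03 and 2.01 kb against 0) were likewise separated in DMSO.

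A test of the difference between the 2 knockout effects passed at 338 regions, 0.628%, with 3104 at an unadjusted p under 0.05; without scramble DMSO replicate 1 it passed at 509. These were 25 promoter (0.232%), 164 intragenic (0.654%) and 149 distal (0.831%) regions, and 209 of them were dexamethasone calls, 117 higher and 92 lower. In 127 of the 338 (37.6%), and in 101 of the 6300 dexamethasone calls (1.60%), only the 3 libraries of 1 group had a peak. The bounds of such a region are the bases shared by those 3 libraries, so their 3 values are equal by construction and their spread is understated. When regions were bounded by all covered bases, an alternative chosen after seeing the data, 159 regions passed, and 135 of the 338 overlapped one that changed the same way. With regions that needed 2 libraries, 234 passed.

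ADAM23 and RUNX1, chosen after their values were seen, had opposite knockout effects in the 2 treatments. At a region 36.5 kb inside ADAM23, a neuronal disintegrin protein without protease activity, coverage was 2.90, 2.91 and 3.06 kb in knockout and 1.27, 1.15 and 1.17 kb in scramble cells with dexamethasone. In DMSO the order was turned, with 1.34, 1.15 and 1.31 kb in knockout and 2.99, 2.98 and 2.98 kb in scramble cells (difference of effects log2 2.42, adjusted p = 9.3e-07). A distal region 177 kb from RUNX1, a haematopoietic transcription factor, covered 4.29, 4.37 and 4.39 kb in knockout and 2.38, 2.45 and 2.25 kb in scramble cells with dexamethasone, and 1.95, 1.86 and 1.89 kb against 2.48, 2.04 and 2.33 kb in DMSO (log2 1.11, adjusted p = 0.00038). Both regions had a peak in all 12 libraries. Over gene windows, 2 of 17152 differed (0.0117%), 1 of them TNFSF8: in DMSO it covered 4.17, 4.49 and 5.58 kb in knockout and 0 in scramble cells, so the knockout effect was smaller with dexamethasone (difference of effects log2 -2.15, adjusted p = 0.0017).

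**Figure D5:**
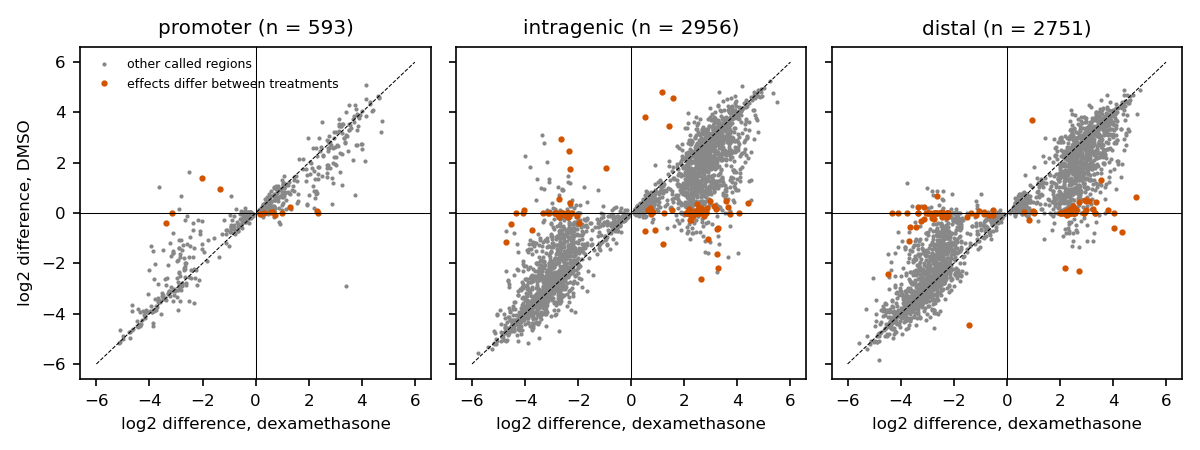
Log2 difference in covered length between CEBPB knockout and scramble cells with dexamethasone (horizontal axis) and in DMSO (vertical axis) for the 593 promoter, 2956 intragenic and 2751 distal regions called with dexamethasone; orange points are the 209 whose effects differed between treatments, and the dashed line marks equal effects. Most points lie in the same-sign quadrants, and many orange points lie along the horizontal line of no difference in DMSO.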

How the data were processed

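H3K27ac CUT&RUN was measured in 12 libraries of RPMI 8226 cells, 3 in each of 4 groups. Reads were aligned with Bowtie2 2.4.2 to hg38 and broad peaks were called per library with MACS3 3.0, per the submitters' processing notes; no control library is named in the labels. The deposited start and end of each peak are positions (unit other), and the deposited fold enrichment is a ratio that the authors' peak caller gave each peak. Sequencing depth is not given in the sources used here, so no counting interval could be made.

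Only peaks on the autosomes and chromosome X entered. Regions were runs of bases covered in at least 3 of 12 libraries, with gaps of up to 300 bp joined and at least 300 bp long. Genes were the 19970 protein-coding genes of the RefSeq table of GRCh38.p14, with starts for 15811; both ends counted for the others. Values were log2(covered bases + 100) per region, or + 500 over a gene and 25 kb on either side in genes covered in at least 3 libraries. They were quantile-normalised and tested with limma 3.58.1 (trend and robust, 8 residual degrees of freedom, all 12 libraries) in R 4.3.3, with Benjamini-Hochberg adjustment over all features and a threshold of 0.05. Log2 differences understate changes of short regions, and where a group is at 0 they depend on the offset, so kilobases are given. Totals of each class were set against each other with an exact permutation test, two-sided. Other steps ran in Python 3.11.15 with SciPy 1.17.1 and pandas 2.3.3; plots were drawn with Matplotlib 3.10.9. The region code and tests were checked on simulated data. The region test recovered 26.9%, 47.8% and 53% of simulated log2 changes of 1, 2 and 4, and the gene window test 50.7%, 88.1% and 97%. A region that was not called is therefore not shown to be unchanged.

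Replicate numbers did not pair the samples: deviations of same-numbered knockout and scramble libraries from their group means correlated at -0.018, -0.010 and 0.009, so no block was fitted. Named regions were up to 6 per class and direction by size among non-overlapping calls, CEBPB and NR3C1, and up to 3 per gene list by smallest p. Genes with the most called regions, list members given by their number of calls, and gene windows were named after their values were seen. The comparison, members and lists were chosen with earlier results of these data known. A promoter and a gene list are not reported here.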

Additional observations from a re-analysis of the deposited data

Results flagged for a closer look

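The effect of the knockout on covered length differed between dexamethasone and DMSO, by the limma test of the difference itself, at 338 of 53785 regions, and the 12 described regions and 1 gene window below are among those that passed. A positive difference means that knockout minus scramble was higher with dexamethasone. At the FOS distal region the difference of effects was -2.88 and at TSC22D3 -3.77, at BLK -2.69 and at FCRL5 -2.40 (log2), with a peak in the 3 scramble libraries with dexamethasone and in none of the other 9. At ZBTB20 it was 2.19 and at PFKFB2 2.18, with a peak in the 3 knockout libraries with dexamethasone alone. In these 6 regions the 3 values of a group are equal by construction, which understates their spread. With regions bounded by all covered bases the adjusted p was 0.020 for TSC22D3, 0.045 for BLK, 0.043 for FOS and 0.047 for FCRL5, but 0.85 for ZBTB20 and 0.14 for PFKFB2.

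The other regions had peaks in more than 1 group. The CCDC74A distal region (difference 4.21, adjusted p = 0.0046) had no peak in scramble cells with dexamethasone and 0.941, 0.380 and 0.528 kb in scramble cells in DMSO. GBP5 (3.72) and HOXB1 (2.42) had the same pattern, except for 0.258 kb at GBP5 in 1 scramble library with dexamethasone. With all covered bases the adjusted p was 0.013 for CCDC74A, 0.070 for GBP5 and 0.37 for HOXB1. At the IER5 promoter the difference was 0.35 (0.056 with all covered bases), with 2.80, 2.89 and 2.81 kb in knockout cells with dexamethasone and 2.06 to 2.30 kb in the other 9 libraries. At SLC16A3 it was -0.42 (0.14 with all covered bases) and at RPS23 -2.03 (0.20 with all covered bases). For the TNFSF8 gene window the difference was -2.15 (adjusted p = 0.0017).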

How the results depend on the processing

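Counts of called regions for the 41 gene lists were less steady. Of 1271 such counts, under the alternatives and with 1 library left out, 177 moved by more than 1.5 times. The counts over all regions, by class and over gene windows kept within 1.5 times under normalization, offset, region and gene-set alternatives, with these exceptions. With the upper 50% of peaks by fold enrichment 2748 regions were called (345 promoter, 1112 intragenic, 1291 distal) and 828 gene windows, and the promoter total in knockout minus scramble libraries was -0.133 Mb instead of 0.372 Mb. Regions that needed 6 libraries gave 4193 calls (1908 intragenic, 1780 distal), centring by 10 Mb gave 1841 promoter calls, and gene windows of 100 kb gave 2572. Leaving out 1 library gave 5416 to 6248 calls (456 to 596 promoter, 2559 to 2954 intragenic, 2373 to 2730 distal), 884 to 1398 gene windows and 304 to 509 differences between treatments, the highest without scramble DMSO replicate 1. The class totals then differed by 0.238 to 0.578 Mb (promoter), -0.195 to 1.44 Mb (intragenic) and -0.234 to 0.864 Mb (distal). With regions bounded by all covered bases, chosen after seeing the data, 159 regions differed between treatments. Of 145 named called regions, 134 kept their call when any 1 library was left out. Under the other alternatives only 66 of the 145 never lost it, while 2507 of 2657 single values kept it. The replicate block, although the numbers did not pair the samples, moved the differences between treatments from 338 to 156.

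Differences that changed sign, on the log2 scale: with the upper 50% of peaks TNFRSF10B -1.11, IER5 -1.52, KLF6 -0.055, ID3 -3.99, LPCAT1 -1.42, YWHAZ -3.15, the NR3C1 intragenic region 3.05 and the STOM window -0.037; with equal covered length CXCR3 -1.45; with windows of 5 kb TNF -0.054 and LTB -0.0021. The CEBPB promoter, which was not called, had 0.27 after centring by 10 Mb (adjusted p = 0.025) and -0.059 to 0.016 without 1 library. The NR3C1 promoter had -0.017 to 0.13 without 1 library. Another NR3C1 distal region, which starts at chr5:143509747 and is not the called one, had -0.052 to 0.21 without 1 library and -0.035 with all covered bases. The cause of these shifts was not tested. Sequencing depth is unknown, and covered length cannot rise in regions already covered throughout.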

Other observations

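Other gene lists had few changes under dexamethasone. Housekeeping genes had 4 regions higher and 0 lower of 64 (6.25%), and glycolysis genes had 2 higher and 4 lower of 86 (6.98%). Dual-specificity phosphatases, which switch off MAP kinases, had 4 higher and 4 lower of 106 (7.55%), and myeloma surface antigens and drug targets 7 higher and 2 lower of 115 (7.83%). HOX and other homeobox cluster genes had 1 higher and 1 lower of 14 (14.3%), while 3 of their 23 gene windows were lower and 0 higher, beside 3.38% lower over all windows. The 3 were those of HOXC4, HOXC5 and HOXC6, which lie in 1 gene cluster, so they are not separate observations.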
